A study of Mus musculus with 17 samples.

Results

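Osteocalcin is a hormone made by bone-forming cells and encoded in the mouse by Bglap, called Ocn in this study, and its close copy Bglap2. Testes of newborn Ocn-/- (KO) males were compared with those of wild-type (WT) males by RNA-seq of polyadenylated RNA, and the 5 testes of this comparison are part of a series of 17 samples. The comparison asks which genes of the newborn testis differ in level when osteocalcin is missing from the pup and from its mother. All animals were on the 129/SvEv background. The deletion was made by homologous recombination in embryonic stem cells, in the strain the study calls Ocn_GK. Testes were collected at postnatal day 1 (P1), between 6 and 7 in the evening. The 2 WT testes came from pups of WT mothers, and the 3 KO testes came from pups of Ocn-/- mothers. The 3 heterozygous Ocn+/- (Het) testes, which serve here only as a side-by-side reference, also came from pups of Ocn-/- mothers. Pup genotype, the mother's genotype and litter therefore changed together between WT and KO, and their effects cannot be told apart. Nothing in the sources used here says whether the pups of a group came from separate litters, so the p-values measure the spread between these samples.

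The newborn testis holds cords of dividing Sertoli cells around prospermatogonia, the germ cells that will found spermatogenesis. Between the cords lie fetal Leydig cells, which make androgen under the control of luteinizing hormone and cyclic AMP, together with stromal cells, vessels and macrophages. Adult Leydig cells respond to osteocalcin through the receptor Gprc6a. In bulk RNA, fewer cells of a type and less RNA per cell cannot be told apart.

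Each library held between 7858718 and 8289015 expected counts in the WT and KO testes, and 16361 genes passed the filter on low counts. The targeted gene could not check the labels, since Bglap and Bglap2 were at 0 in all 5 testes, where 0 allows up to 3 counts per library, or 0.356 to 0.389 CPM, counts scaled to a common library total. These limits cover counting error only. Gprc6a had at most 2 counts and Gpr158, an osteocalcin receptor of the brain, at most 3 counts in any of the 5, too few to be tested. Gpr37, a further receptor, rose in KO testes with a log2 fold change of 0.61 ± 0.16 (SE), from 60.1 and 55.0 CPM in WT to 72.7, 89.0 and 102 CPM in KO (adjusted p = 0.0329), although the call was lost without either WT testis, without KO replicate 3 and with the replicate block. Bglap3, a neighbouring copy of the gene, was at 0.777 and 0.252 CPM in WT and at 1.66, 1.27 and 1.77 CPM in KO, which did not pass the test (adjusted p = 0.2). The groups did not overlap for Bglap3, but these levels rest on few counts.

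Between KO and WT testes, 922 of the 16361 tested genes (5.64%) passed an adjusted p of 0.05 in edgeR's quasi-likelihood test, 416 higher (2.54%) and 506 lower (3.09%) in KO. The median log2 fold change was 0.738 among the genes called higher and -0.863 among those called lower, against -0.006 over all genes tested. Changes above 1 log2 unit were seen for 100 of the higher genes and below -1 for 188 of the lower ones. Each of the 922 called genes had KO values that did not overlap the WT values. That alone is a weak criterion here, since 19.9% of all tested genes lay wholly higher and 22.1% wholly lower in the KO testes. Of 14501 protein-coding genes 2.70% were called higher and 3.30% lower, against 15 higher and 14 lower of 888 long noncoding RNA genes and 7 in each direction of 657 pseudogenes.

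The number of calls depended most on the 2 WT testes. It was 231 without WT replicate 1 and 85 without WT replicate 2, and it was 409, 1559 and 589 without KO replicates 1, 2 and 3. Scaling by library size alone turned the balance of directions, with 752 genes higher and 401 lower, so that 65.2% of calls were higher against 45.1% under TMM scaling. With that scaling the median of all genes lay at 0.0723. Of the 922 genes, 61 kept their call and direction under all 12 alternatives, 10 higher and 51 lower.

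**Figure D1:**
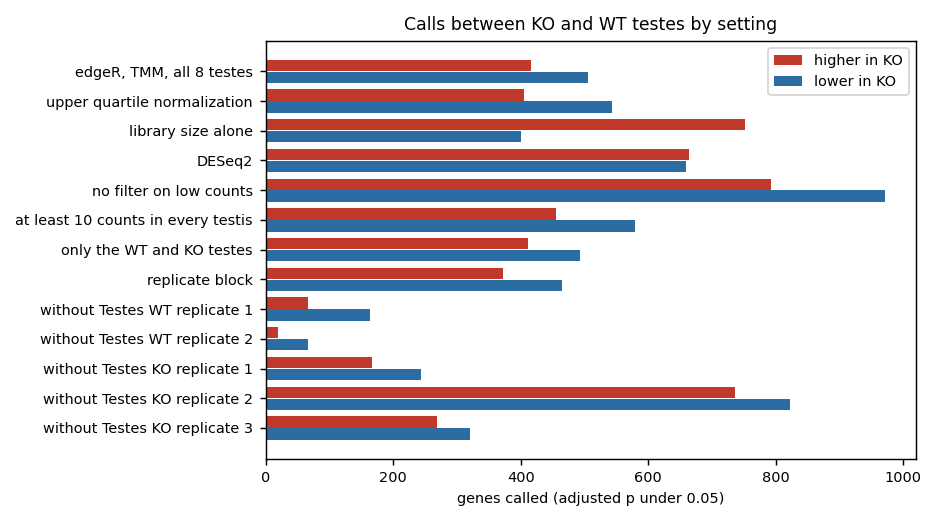
Bars show the number of genes called higher (red) and lower (blue) in KO against WT testes, on a linear axis from 0, for the main fit and each alternative. The longest bars are those without KO replicate 2 (736 higher and 823 lower) and without a filter on low counts (792 higher and 971 lower), and the shortest are those without WT replicate 2 (19 higher and 66 lower).

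The 10 genes that stayed higher under every alternative included Sox9 and Sox8, the transcription factors that specify and maintain Sertoli cells, and Timeless, Wee1 and Ccnf, which act in DNA replication and the control of mitosis. The others were Rcan1, an inhibitor of calcineurin, Pard6b, a cell polarity protein, Srcap, a chromatin remodeler, and the predicted genes Gm50321 and Gm47547. These and the following genes of this paragraph were named after their values were seen. The 51 that stayed lower included glycolytic enzymes, the NR4A receptors Nr4a1 and Nr4a2, Vegfa and its receptors Flt1 and Kdr, and Pecam1. Among genes outside any list, Ptp4a1, a phosphatase with near copies in the genome, was at 575 and 487 CPM in WT and at 183, 206 and 182 CPM in KO. Tiparp, an ADP-ribosyltransferase induced by the aryl hydrocarbon receptor, was at 122 and 122.9 CPM in WT and at 46.6, 53.8 and 39.2 CPM in KO. Cebpa, a transcription factor of metabolic and myeloid cells, was at 82.8 and 84.8 CPM in WT and at 33.2, 34.0 and 34.2 CPM in KO. For all 3 of these genes the KO testes lay close together and below both WT testes.

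The largest rises among protein-coding genes were in genes at low levels. Tnnt2, the troponin T of heart muscle, had 0.389 and 0.252 CPM in WT and 6.16, 4.46 and 5.81 CPM in KO. This was 17.2-fold higher in summed counts (exact 95% counting interval 7.19 to 53.8), with an adjusted p of 0.000443, and it was called under each alternative that tested it, which the minimum of 10 counts in every testis did not. Tnni1, the slow troponin I, rose from 2.07 and 2.40 CPM to 17.2, 6.12 and 15.2 CPM, and Cacna1s, the calcium channel of skeletal muscle, from 3.24 and 3.03 CPM to 10.3, 8.16 and 17.6 CPM. The 13 tested genes of a skeletal muscle list did not move together: Tnni1 and Cacna1s rose, Tnnt1, another slow troponin, fell from 7.39 and 8.96 CPM to 3.32, 3.70 and 3.92 CPM, and the median was 0.049. Acta1, the actin of skeletal muscle, had 0 and 0.126 CPM in WT and 0.948, 0.510 and 1.77 CPM in KO and did not pass the test (adjusted p = 0.0948). Both calls of higher muscle genes in the list were lost without either WT testis.

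Among the other large rises, Foxq1, a forkhead transcription factor, rose by 2.57 ± 0.42 log2 units and Mei1, a gene of meiotic recombination, by 2.23 ± 0.42. Elf3, an epithelial transcription factor, was at 0.648 and 3.79 CPM in WT and 9.96, 5.35 and 9.60 CPM in KO, with an adjusted p of 0.0499 and so on the edge of the call. Tmem121b (2.13), Sap25 (2.06), Gipc3 (1.95), Dmbx1 (1.90) and Gm49322 (1.89, log2 fold changes) completed the 12 largest. These 5 calls were lost without either WT testis, and Dmbx1 also in DESeq2, with the replicate block and in other fits, while the Foxq1 and Mei1 calls were lost without WT replicate 2. Gm3194 had no count in either WT testis and 3.56, 4.97 and 2.02 CPM in KO, at least 9.17-fold higher against a floor of 3 counts per library. The noncoding and pseudogene loci Gm7967 and Gm6039 were likewise at 0 in both WT testes and at least 4.32-fold and 3.19-fold higher in KO, and 2900060N12Rik was 17.7-fold higher (5.84 to 87.5). Predicted genes of this kind often have near copies, and the way expected counts are shared among copies leaves their levels uncertain.

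Among the genes that fell, Npcd was at 1.43 and 1.64 CPM in WT and without a count in any KO testis, at least 4.12-fold lower. Npcd is a read-through locus that overlaps Cbx6 on the same strand, so its counts are uncertain, and Cbx6 itself was called higher (log2 fold change 0.64). Npcd was at 1.06, 2.40 and 3.71 CPM in the Het testes, and the groups of Het and KO testes did not overlap. The remaining large falls were of neutrophil and NR4A genes, described below, and of Npy, Ptgs2 and Chil3. Npy, a neuropeptide, was 12.4-fold lower (4.39 to 48.2). Ptgs2, the inducible cyclooxygenase, was at 4.15 and 10.6 CPM in WT and 0.830, 1.27 and 0 CPM in KO (log2 fold change -3.36 ± 0.81, adjusted p = 0.0405). Of other kinds of gene, Gm44829 (-3.53), Gm44532 (13.1-fold lower, 4.69 to 51.0) and Gm32051 (13.4-fold lower, 4.11 to 69.2) fell the most. The calls of Ptgs2, Npy and these 3 genes were lost without either WT testis or KO replicate 1, and all but that of Ptgs2 also in DESeq2, while the Npcd call was lost in DESeq2 and without WT replicate 2.

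Among cell type markers, the Sertoli cell and prospermatogonia lists had medians near that of all genes. Apart from neutrophils, the lists of endothelial cells and pericytes held the largest shares of genes called lower. The neutrophil share rests on members such as Ngp, near 0 in KO, that passed the filter on low counts through their WT level, so it supports nothing. Of 30 tested Sertoli cell genes 2 rose, 1 fell and 27 did not pass (10% called, against 5.64% of all genes), with a median of 0.146. Summed levels were 5342 to 6046 CPM in WT and 5153 to 6485 CPM in KO, which overlap. Sox9 stood at 49.4 and 50.8 CPM in WT and 103, 95.2 and 123.2 CPM in KO, a log2 fold change of 1.10 ± 0.15 (adjusted p = 0.000777). Sox8 stood at 38.9 and 41.1 CPM in WT and 96.9, 94.9 and 110 CPM in KO (1.33 ± 0.18, adjusted p = 0.000951). Both factors were higher in each KO testis than in either WT testis, with no overlap. Amh, their classical target and the main hormone of fetal Sertoli cells, was at 464 and 423 CPM in WT and 499, 331 and 542 CPM in KO, overlapping, with a log2 fold change of 0.04 ± 0.19 (adjusted p = 0.918). Aldh1a1, an enzyme of retinoic acid synthesis, fell by 0.54 on the log2 scale, a call lost without either WT testis, while both rises remained. Library size scaling, DESeq2 and the unfiltered fit called 6, 5 and 6 genes of this list higher.

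Of 39 prospermatogonia genes 2 rose, 1 fell and 36 did not pass, with a median of -0.007. The share called, 7.69%, was near the 5.64% of all genes. The germ cell RNA-binding genes Dazl (log2 fold change -0.08, adjusted p = 0.76) and Ddx4 (0.02, adjusted p = 0.939) overlapped between groups. Sohlh2, a transcription factor of differentiating spermatogonia, rose from 4.79 and 3.79 CPM to 9.60, 11.9 and 17.9 CPM, and Ret, the receptor of GDNF signaling in germ line stem cells, from 44.7 and 42.5 CPM to 90.5, 59.6 and 81.1 CPM. Tdrd9, a helicase of transposon silencing, fell from 52.3 and 45.7 CPM to 28.1, 24.7 and 24.3 CPM. These 3 calls were lost without either WT testis.

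Of 25 fetal Leydig cell genes, none rose, Lhcgr and Fdx1 fell and 23 did not pass, with a median of -0.222 and summed levels of 4259 to 4439 CPM in WT and 3046 to 3788 CPM in KO. The share called, 8%, was near the 5.64% of all genes. Lhcgr is the receptor of luteinizing hormone, and its log2 fold change was -1.19 ± 0.18 (adjusted p = 0.00149). Fdx1, the electron donor of the first steroidogenic enzyme, stood at 75.8 and 90.3 CPM in WT and 28.6, 31.0 and 22.9 CPM in KO (-1.60 ± 0.35, adjusted p = 0.0449). Cyp11a1, that first enzyme, had no overlap but did not pass (-1.10, adjusted p = 0.079), and Star, which carries cholesterol into mitochondria, did not pass either (-1.71 ± 0.74, adjusted p = 0.258). Cyp11a1 was called in DESeq2, without a filter, on the 5 testes alone and with the replicate block, while the Fdx1 call was lost with the replicate block and whichever of the 5 testes was left out, and the Lhcgr call without WT replicate 2. Without WT replicate 1, KO replicate 1 or WT replicate 2, the count of lower Leydig genes was 1, 1 and 0, while DESeq2 and the fit on the 5 testes alone called 4. The 4 tested genes of steroid cells of the adrenal type had a median of -0.993 and no call.

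Among interstitial stromal genes 4 of 24 fell, against 3.09% called lower over all genes, and the median was -0.273. These were Fbln1, Dpt, Pdgfrb and Ogn, which encode extracellular matrix proteins and a growth factor receptor. Fbln1, fibulin 1, stood at 143 and 197 CPM in WT and 94.96, 80.9 and 72.2 CPM in KO (-1.04 ± 0.15, adjusted p = 0.000951). Nr2f2, the factor that marks these cells, did not pass (-0.32, adjusted p = 0.193), nor did the less abundant Nr2f1 (-1.01, adjusted p = 0.342). The count was 2 without WT replicate 1 and 0 without WT replicate 2, and 7 in the unfiltered fit. Of 19 peritubular and smooth muscle genes only Cald1, an actin-binding protein, fell (-0.57), with a median of -0.276. The share called, 5.26%, was near the 5.64% of all genes. The median log2 difference from the WT mean was -0.07, -0.126 and -0.735 in KO replicates 1, 2 and 3, so that KO replicate 3 stood apart. Myh11 (-0.44, adjusted p = 0.0926) and Acta2 (-0.28, adjusted p = 0.281), the defining contractile genes, did not pass. The count was 0 without either WT testis or KO replicate 3 and 4 without KO replicate 2.

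**Figure D2:**
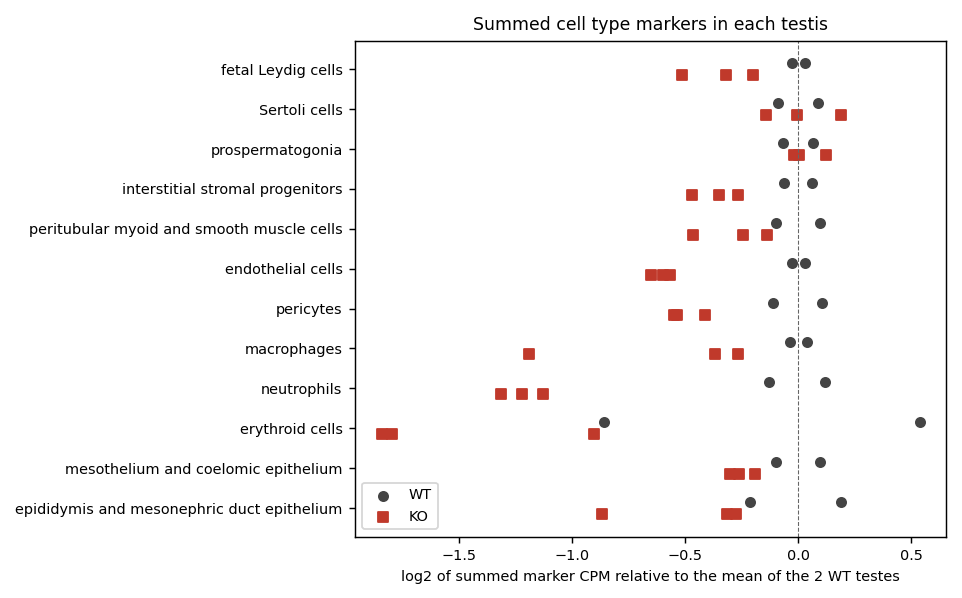
Each row is a cell type list and each symbol a testis, placed by the log2 of the summed CPM of the markers relative to the mean of the 2 WT testes (circles, WT; squares, KO). The KO testes lie left of both WT testes for endothelial cells, where the sums were 1481 and 1542 CPM in WT and 961 to 1019 CPM in KO, and for neutrophils, and on both sides of the WT testes for Sertoli cells.

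Endothelial cells, which line the vessels, held the largest number of calls among the 17 cell type lists. Of 28 tested endothelial genes 14 fell, 1 rose and 13 did not pass, with a median of -0.820, against 3.09% called lower and a median of -0.006 over all genes. Pecam1, the adhesion molecule of endothelial junctions, was at 107 and 115 CPM in WT and 54.5, 53.5 and 43.6 CPM in KO (-1.13 ± 0.15, adjusted p = 0.000512). Ptprb, a phosphatase of the same junctions, stood at 49.4 and 53.9 CPM in WT and 26.2, 26.6 and 20.1 CPM in KO (-1.09 ± 0.17, adjusted p = 0.00145). Every KO testis lay at about the same reduced level, with none inside the WT range. Eng, a co-receptor for BMP ligands, fell by 0.82 on the log2 scale and Cdh5, the cadherin of endothelial cells, by 0.42, close to the threshold (adjusted p = 0.0497). The other members called lower were Tek, Flt1, Kdr, Flt4, Emcn, Egfl7, Plvap, Vwf, Fabp4 and Gpihbp1, with log2 fold changes from -2.06 (Fabp4, a fatty acid carrier of capillaries) to -0.81 (Egfl7). Sox7 was the member that rose (0.91), a call lost in 6 of the 12 alternatives, including without either WT testis. The count of lower endothelial genes was 7 without WT replicate 1 and 3 without WT replicate 2, and it ran from 10 to 15 under the other alternatives.

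Of 10 tested VEGF ligands and receptors, the signals that make and maintain vessels, 6 fell and none rose, with a median of -1.038. Over all genes 3.09% were called lower. Vegfa, the main ligand, stood at 102 and 140 CPM in WT and 54.3, 49.4 and 49.8 CPM in KO (-1.24 ± 0.14, adjusted p = 8.69e-05). Vegfd, a ligand of the lymphatic branch, stood at 53.8 and 55.5 CPM in WT and 19.2, 24.5 and 14.5 CPM in KO (-1.49 ± 0.19, adjusted p = 0.000451). Both ligands were thus below WT in each KO testis. Among the receptors, Kdr, which carries most VEGF signaling, was at 119 and 125 CPM in WT and at 60.3, 72.0 and 51.7 CPM in KO, and Flt1, which binds VEGF tightly, at 48.6 and 59.9 CPM in WT and at 18.97, 16.1 and 21.5 CPM in KO. Flt4, the receptor of the lymphatic branch, fell by 1.08 and Nrp2, a co-receptor, by 0.92 on the log2 scale. Of the 6 calls, 4 were left without WT replicate 2. The fall of vessel receptors and the fall of endothelial markers share genes (Flt1, Kdr and Flt4 are in both lists).

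Of 9 genes of pericytes, the mural cells of small vessels, 4 were called lower, against 3.09% of all genes, and none higher, with a median of -0.734. Rgs5, a regulator of G protein signaling that marks them, stood at 124 and 140 CPM in WT and 69.9, 76.2 and 58.5 CPM in KO (-0.95 ± 0.13, adjusted p = 0.000564). Notch3 (-0.50), Ndufa4l2 (-1.33) and Abcc9 (-0.73) were the others called, whereas Kcnj8, the partner channel of Abcc9, just missed (-1.07, adjusted p = 0.0577). Single testes decided this count, which was 1 without WT replicate 1, WT replicate 2 or KO replicate 2, 2 without KO replicate 1 or 3 and 2 under library size scaling, while Rgs5 was called under every alternative. Caveolae genes had 1 fall of 8, Cav1 (-0.92), which is abundant in endothelium, and a median of -0.298. Of 26 vasoactive peptides and receptors Npy and Edn3, an endothelin, fell (median -0.284). None of these caveolae or vasoactive genes was called without WT replicate 1, WT replicate 2 or KO replicate 1, and without KO replicate 2 the counts were 2 and 4.

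Of 14 neutrophil genes 9 passed the filter on low counts, of which 4 fell and none rose, with a median of -2.658. Over all genes 3.09% were called lower. Members near 0 in KO, such as Ngp, passed the filter through their WT level, so this count and median support nothing. S100a8, a calcium-binding protein that fills neutrophils, stood at 20.2 and 12.1 CPM in WT and 1.42, 1.02 and 3.54 CPM in KO (-3.01 ± 0.45, adjusted p = 0.00183), and its partner S100a9 fell by 3.19. Ngp, a granule protein, stood at 17.1 and 8.20 CPM in WT and 0.948, 0.255 and 1.90 CPM in KO, and Ltf, lactoferrin, fell by 2.94. All KO testes lay under both WT testes for these genes. Stefin A type genes in a cluster on chromosome 16 (GRCm39 35977176 to 36275884), which neutrophils express, are described after their values were seen. The 5 that were tested were all called lower, but they are near 0 in KO and passed the filter through their WT level, so that their count supports nothing. Cstdc5 went from 15.2 and 9.72 CPM to 0.830, 0.892 and 2.78 CPM and Cstdc4 from 6.48 and 3.03 CPM to 0.593, 0.127 and 0.885 CPM, while Stfa3 was 13.9-fold lower (4.28 to 71.7). The Cstdc4 and Stfa3 calls were lost in DESeq2 and without either WT testis, as was that of Chil3. These are near copies, so the share of counts among them is uncertain. Chil3, a myeloid chitinase-like protein, was 49.5-fold lower in summed counts, with a counting interval of 8.27 to 2020. The neutrophil count was 2 without either WT testis, and under a minimum of 10 counts in every testis the called members were no longer tested.

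Macrophages had 1 call lower of 21, F13a1 (-1.66 ± 0.36, adjusted p = 0.0349), and a median of -0.555. The share called, 4.76%, was near the 5.64% of all genes. Summed levels were 251 and 264 CPM in WT and 214, 199 and 112 CPM in KO, so that KO replicate 3 stood lowest. The F13a1 call was lost without WT replicate 1, WT replicate 2 or KO replicate 1. The defining genes Adgre1 (-0.84, adjusted p = 0.2) and Csf1r (-0.15, adjusted p = 0.698) did not pass. No gene of 7 for mast cells was called (median -0.416), Cpa3 (-0.63) and Mcpt4 (-0.42) included. Erythroid genes were lower in median (-1.270, none of 10 called) but uneven within WT, with summed levels of 6869 CPM in WT replicate 1, 2607 CPM in WT replicate 2 and 1321 to 2527 CPM in KO. Hba-a1 at 2245 and 834 CPM in WT and 764, 436 and 428 CPM in KO showed the same. Every KO testis lay below both WT testes in summed erythroid level, the WT testes differed widely, and the replicate block called 5 of the 10 lower. The part of blood cells in the other results was not tested.

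Markers of tissue next to the testis differed mainly in 1 library. The median log2 difference from the WT mean was -0.238, -0.131 and -1.33 in KO replicates 1, 2 and 3 for the epididymal list and -0.225, -0.16 and -0.77 for the mesothelial list, so that KO replicate 3 stood apart, and the medians of the Het fold changes were 0.126 and 0.186. Of 19 genes of the epididymis and mesonephric ducts 3 fell (15.8% called, against 5.64% of all genes), with a median of -0.494. These were the keratins Krt19 (-1.23) and Krt18 (-0.77) and the epithelial factor Grhl2 (-1.12). The defining factors Pax8 (-0.78, adjusted p = 0.178) and Pax2 (0.31, adjusted p = 0.739) did not pass. The keratins were also the 2 called members of 15 mesothelial genes (13.3% called, median -0.333), in which Upk3b (-0.33) and Upk1b (-0.78) did not pass. None of these 3 epithelial genes kept its call without WT replicate 2, KO replicate 1 or KO replicate 3. Adipocyte genes (9 tested, median 0.209, with Plin1 at 0.73) and Schwann cell genes (7 tested, median -0.025, with Sox10 at -0.39) had no call. Plin1 was called higher under library size scaling, in DESeq2, without a filter and without KO replicate 2, and 1 Schwann cell gene was called lower without KO replicate 1.

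**Figure D3:**
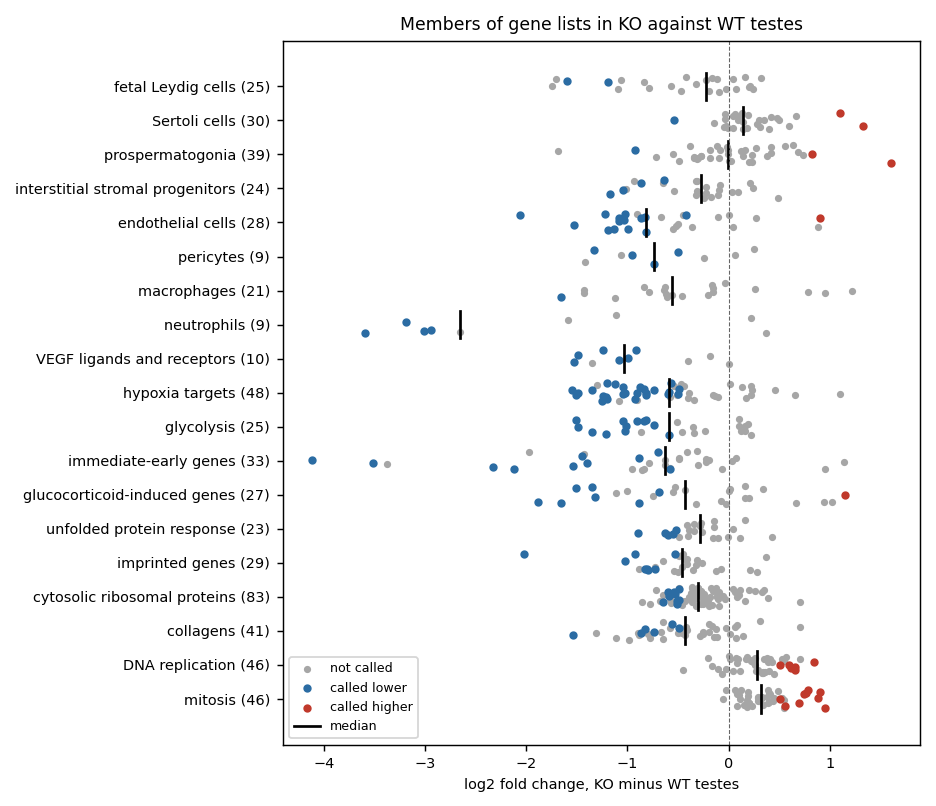
Each row is a gene list with the number of tested members in brackets, and each point is a member placed by its log2 fold change (KO minus WT), grey where not called, blue where called lower and red where called higher, with a black bar at the median. Hypoxia targets (25 of 48 lower, median -0.594) and endothelial genes lie to the left, and the mitosis list (9 of 46 higher, median 0.324) lies almost wholly to the right of 0.

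Hypoxia-inducible factors switch on glycolytic enzymes, glucose transporters and vessel growth factors when oxygen is short. Of 48 tested target genes 25 fell, against 3.09% called lower over all genes, and none rose. A fold change below 0 was seen in 39 of 48, and the median was -0.594, against -0.006 over all genes. The KO testes were alike here, with summed levels of 4230, 4288 and 4321 CPM against 6973 and 7920 CPM in WT. Bnip3, a mitophagy receptor, stood at 139 and 177 CPM in WT and 51.1, 58.0 and 52.6 CPM in KO (-1.55 ± 0.13, adjusted p = 7.29e-06). Ldha, lactate dehydrogenase, stood at 454 and 529 CPM in WT and 180, 150 and 194 CPM in KO (-1.49 ± 0.13, adjusted p = 8.9e-06). Both genes were at about a common low level in the KO testes. P4ha1 (-1.20) and P4ha2 (-1.05), which hydroxylate collagen, Pdk1 (-0.82), which holds pyruvate out of mitochondria, and Egln3 (-1.25), an oxygen sensor, were called lower too.

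Glycolysis shares much of this list, and 12 of its 25 tested genes fell, against 3.09% called lower over all genes. None rose (median -0.592), and Pgk1, Eno1, Tpi1 and Pkm were among those that fell. Eno1 stood at 719 and 852 CPM in WT and 311, 291 and 322 CPM in KO (-1.35 ± 0.13). Its near copy Eno1b was at 366 and 430 CPM in WT and 149, 131 and 176 CPM in KO, and counts may be shared between these copies. Of the transporters of glucose and lactate, Slc2a1 (-0.92), Slc16a3 (-1.21) and Bsg (-0.58) of 20 genes fell (median -0.192), none of them without WT replicate 2. In contrast to glycolysis, none of 25 genes of the TCA cycle was called (median -0.078). Without WT replicate 2 the hypoxia count was 7 and the glycolysis count 5, while Bnip3, Ldha, Pgk1, Eno1, Tpi1, Pkm and Vegfa kept their calls under every alternative.

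The core of the hypoxia response element is ACGTG or GCGTG. In the 250 bases upstream of the annotated start, 11 of the 25 promoters of called hypoxia targets held ACGTG on either strand, and 21 of the 48 tested ones, against 2952 of 14501 promoters of tested protein-coding genes (20.4%). The share was not particular to hypoxia targets, since ACGTG was also in 44.4% of tested glucocorticoid-induced, 44.0% of clock and 48.0% of glycolysis genes. GCGTG was in 48.0% of the promoters of called targets against 40.1% of all promoters, and either form was in 72.0% against 51.3%. Over all tested hypoxia targets these shares were 43.8% and 64.6%, so the called targets stood near their list as a whole. The stretches below, read from GRCm39 upstream of the start in 5′ to 3′ order of the gene's strand, show ACGTG in capitals for 4 of the called genes. CACGT is the same core on the other strand, and CACGTG holds both and is also the E-box of clock factors.
Bnip3 (chr7:138511301-138511380, minus strand): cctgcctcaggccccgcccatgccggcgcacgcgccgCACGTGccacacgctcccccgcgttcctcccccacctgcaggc
Ldha (chr7:46495149-46495228, plus strand): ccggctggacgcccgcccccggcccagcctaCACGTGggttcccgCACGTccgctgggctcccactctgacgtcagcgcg
Pgk1 (chrX:105230528-105230607, plus strand): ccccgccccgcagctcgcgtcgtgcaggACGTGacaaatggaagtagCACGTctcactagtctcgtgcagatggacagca
P4ha2 (chr11:53991634-53991713, plus strand): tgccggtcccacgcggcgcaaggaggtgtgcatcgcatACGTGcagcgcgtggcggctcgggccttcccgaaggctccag
Bnip3 and Ldha each held a palindrome, Ldha and Pgk1 held ACGTG more than once within 80 bases, and P4ha2 held ACGTG once. The other form, GCGTG, is not marked. Such a match is a description of the sequence and not a bound site.

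Immediate-early genes, which cells switch on within minutes of a signal and which luteinizing hormone induces in Leydig cells through cyclic AMP, held calls in the lower direction only. Of 33 tested, 10 fell, against 3.09% called lower over all genes, none rose, 29 had a fold change below 0 and the median was -0.628, with summed levels of 1705 and 1734 CPM in WT and 929, 880 and 959 CPM in KO. The 3 NR4A orphan nuclear receptors were among the called members. Nr4a2 stood at 67.5 and 40.2 CPM in WT and 5.69, 4.97 and 3.41 CPM in KO (-3.51 ± 0.26, adjusted p = 3.63e-06), the lowest adjusted p of all genes tested. Nr4a1, a direct activator of steroidogenic genes, stood at 223 and 226 CPM in WT and 49.1, 36.1 and 69.9 CPM in KO (-2.12 ± 0.22, adjusted p = 0.000777). Nr4a3 stood at 45.1 and 22.5 CPM in WT and 3.79, 1.15 and 0.758 CPM in KO (-4.12 ± 0.57, adjusted p = 0.00563). For each of the 3 receptors all KO testes lay far below both WT testes. They were the only called members of 34 nuclear receptor genes, whose median was -0.141. The AP-1 genes Fosl2 (-1.45) and Junb (-2.33) and the MAP kinase phosphatase Dusp5 (-1.40) fell and kept their calls under every alternative. Maff (-1.54), Btg2 (-0.70), Dusp1 (-0.89) and Klf6 (-0.58) completed the 10. Without WT replicate 2 the count was 6, and in the fit on the 5 testes alone it was 17.

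Further genes linked to cyclic AMP are given here without a list and were named after their values were seen. Sik1, a kinase induced by cyclic AMP, stood at 139 and 205 CPM in WT and 59.0, 53.9 and 71.1 CPM in KO. Pde4d, a phosphodiesterase that degrades cyclic AMP, stood at 46.3 and 38.6 CPM in WT and 12.3, 11.98 and 11.6 CPM in KO. Crem, the cyclic AMP responsive modulator, fell by 1.05 and Rgs2, an inhibitor of G protein signaling, by 1.29 on the log2 scale. The phosphodiesterases Pde10a (-0.89, adjusted p = 0.0977) and Pde3b (-0.25, adjusted p = 0.49) did not pass.

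The cyclic AMP response element, TGACGTCA, reads the same on both strands. It was present in the 250 bases upstream of 3 of the 10 called immediate-early genes and of 5 of the 33 tested, against 274 of the 14501 promoters (1.89%). The matches in Dusp1, Btg2, Maff and Sik1 are shown in capitals, in GRCm39 and in the 5′ to 3′ order of the gene's strand, because these genes fell together.
Dusp1 (chr17:26727546-26727625, minus strand): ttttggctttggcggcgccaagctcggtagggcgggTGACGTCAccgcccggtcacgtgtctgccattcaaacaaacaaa
Btg2 (chr1:134007016-134007095, minus strand): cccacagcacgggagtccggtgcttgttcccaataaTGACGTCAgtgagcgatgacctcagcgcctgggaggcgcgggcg
Maff (chr15:79231640-79231719, plus strand): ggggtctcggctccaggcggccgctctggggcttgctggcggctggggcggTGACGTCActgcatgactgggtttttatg
Sik1 (chr17:32074974-32075053, minus strand): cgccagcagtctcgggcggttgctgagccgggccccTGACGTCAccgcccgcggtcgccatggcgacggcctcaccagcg
The windows of the NR4A genes held no exact match, which says nothing of the factor. Over all genes called lower the element was in 15 of 478 promoters (3.14%), and over those called higher in 1.02%.

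**Figure D4:**
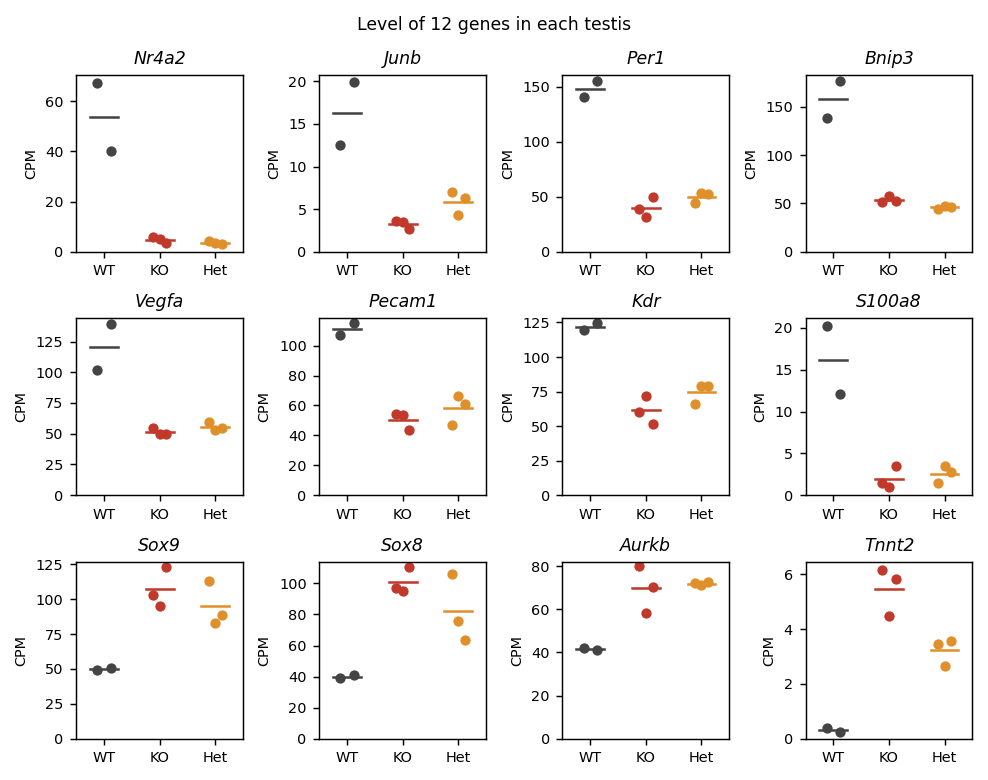
Each panel is a gene, each point a testis and each bar a group mean, in CPM on a linear axis from 0, for WT, KO and Het testes. In the first 8 panels, from Nr4a2 to S100a8, the KO points lie below both WT points, and in the last 4, Sox9, Sox8, Aurkb and Tnnt2, they lie above them.

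Glucocorticoid-induced and clock genes share Dusp1 and Per1 with the stimulus-induced genes above or with each other. Of 27 glucocorticoid-induced genes 7 fell and 1 rose (29.6% called, against 5.64% of all genes), with a median of -0.428. Klf9 stood at 66.6 and 93.0 CPM in WT and 26.6, 30.5 and 18.6 CPM in KO (-1.66 ± 0.22, adjusted p = 0.00145). Sgk1 (-1.32), a kinase of ion transport, Klf15 (-1.35), a factor of amino acid breakdown, Pdk4 (-1.51), Errfi1 (-0.69), Dusp1 and Per1 were the others called lower, and Angptl4, an inhibitor of lipoprotein lipase, rose (1.15). The count of lower genes was 2 without WT replicate 2. Of 25 clock genes 3 fell and 1 rose (16% called, against 5.64% of all genes), with a median of -0.088. Per1 (-1.89) and Per2 (-0.95), which close the feedback loop, and Nfil3 (-1.83), an output repressor, fell, while Timeless, which in mammals acts mainly at replication forks, rose from 34.1 and 32.8 CPM to 66.0, 63.0 and 63.1 CPM. The Per2 call was lost without WT replicate 1, WT replicate 2 or KO replicate 1, and without KO replicate 2 the count of higher clock genes was 3.

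Calls among cell cycle genes were in the higher direction only. Of 46 mitosis genes 9 rose, none fell and 44 had a fold change above 0 (median 0.324), against 2.54% called higher over all genes. Kif20a, a kinesin of cytokinesis, stood at 70.0 and 76.0 CPM in WT and 122, 117 and 116 CPM in KO (0.70 ± 0.12, adjusted p = 0.00356). Aurka, a kinase of the spindle poles, stood at 21.5 and 20.3 CPM in WT and 41.8, 37.2 and 42.7 CPM in KO (0.96 ± 0.18, adjusted p = 0.00689). Plk1, which drives entry into mitosis, stood at 28.4 and 28.6 CPM in WT and 53.8, 52.9 and 51.2 CPM in KO (0.88 ± 0.18, adjusted p = 0.0103). The groups did not overlap for Kif20a, Aurka and Plk1, as for every called gene. Espl1, the protease that frees sister chromatids (0.90), Aurkb (0.74), Kif2c (0.78), Cdc20 (0.77), Ccnb1 (0.56) and Incenp (0.51) were also called.

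Of 46 DNA replication genes 6 rose, against 2.54% called higher over all genes, none fell and 40 lay above 0 (median 0.284). Cdc6, which loads the replicative helicase, stood at 14.1 and 17.3 CPM in WT and 28.8, 26.8 and 29.3 CPM in KO (0.85 ± 0.19, adjusted p = 0.0175). Uhrf1 (0.66), which passes on DNA methylation, Rrm2 (0.66), which makes deoxynucleotides, Mcm2 (0.60), a helicase subunit, Pole (0.51), a DNA polymerase, and Chaf1a (0.61), a histone chaperone, were the others. The summed levels did not overlap in either list, with 4006 to 4089 CPM in WT and 4765 to 5452 CPM in KO for mitosis and 2890 to 3093 CPM against 3531 to 3710 CPM for replication. The calls depended on single testes. No mitosis gene was called without either WT testis, and the replication count was 1 without WT replicate 1 or KO replicate 1 and 0 without WT replicate 2. Library size scaling, DESeq2 and the unfiltered fit called 20, 18 and 16 mitosis genes higher. Both medians stayed above 0 under all 12 alternatives (0.304 to 0.401 for mitosis and 0.258 to 0.363 for replication).

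Chaperones and ribosomal proteins held calls in the lower direction only. Of 23 genes of the unfolded protein response 5 fell and none rose (21.7% called, against 5.64% of all genes), with a median of -0.281. The called genes were all chaperones or disulfide isomerases of the endoplasmic reticulum. Hsp90b1 stood at 1702 and 1732 CPM in WT and 889.5, 1165 and 712 CPM in KO (-0.90 ± 0.17, adjusted p = 0.00833). Calr (-0.55), Pdia3 (-0.52), Pdia6 (-0.60) and Hspa5 (-0.63) were the others, and KO replicate 2 stood highest of the KO testes for each of the 5. The count was 0 without either WT testis, 1 without KO replicate 1 or 3 and 8 without KO replicate 2. Of 26 cytosolic heat-shock and chaperone genes 3 fell (11.5% called), Hspa1a (-0.73), Hspa1b (-0.86) and Hspb8 (-0.77), with a median of -0.229. The first pair are near copies. Rbm3, 1 of 3 cold-inducible RNA-binding genes, rose from 248 and 244 CPM to 344, 382 and 387 CPM, a call lost without either WT testis. Of 29 amino acid response genes Cebpb (-1.24), Atf4 (-0.69), Chac1 (-2.97) and Vegfa fell and Atf5 (0.68) rose (17.2% called), with a median of -0.086. Without WT replicate 2 none of the heat-shock genes and 1 of the amino acid response genes was called lower.

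Cytosolic ribosomal protein genes gave a small and broad difference. Of 83 tested, 9 fell and none rose (10.8% called, against 5.64% of all genes), and 70 had a fold change below 0. The median was -0.302, against -0.006 over all genes, with medians from -0.344 to -0.223 under the 12 alternatives. Rpl10 stood at 966 and 1099.8 CPM in WT and 644, 784 and 620 CPM in KO (-0.60 ± 0.13, adjusted p = 0.0146), and Rpl22l1 (-0.59), Rpl30 (-0.65), Rps3a1 (-0.51) and Rps10 (-0.49) were similar. The count was 0 without either WT testis, 1 without KO replicate 1, 2 without KO replicate 3 and 23 without KO replicate 2 or in DESeq2. Without KO replicate 2, 3 ribosomal protein genes were also called higher. Ribosomal proteins have many pseudogenes that share reads with them. Of 15 histone genes the linker histones H1f2 (-1.61) and H1f0 (-0.93) and the replacement histone H3f3b (-0.66) fell (median -0.444). The count was 1 without WT replicate 2, and H1f2 was called under every alternative.

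Oxidative phosphorylation subunits held few calls. Of 79 nuclear-encoded subunits only Atp5mc1 was called (0.67, higher), with a median of -0.027, and of 13 mitochondrially encoded subunits only mt-Nd2 (-0.70, lower), with a median of -0.083. Neither was called without WT replicate 2. The mitochondrial ribosomal RNAs, named after their values were seen, fell more. mt-Rnr2 stood at 1059 and 1607 CPM in WT and 347, 465 and 428 CPM in KO, and mt-Rnr1 at 633 and 741 CPM in WT and 257, 412 and 291 CPM in KO. These RNAs carry short tails, and poly-T capture recovers them in part, and the part of that capture in the difference was not tested. The share of counts from mitochondrial genes was 3.42% and 3.6% in WT and 2.99% to 3.68% in KO, which overlap. The lists of cholesterol synthesis (26 tested, median -0.005) had no call, fatty acid synthesis (18 tested, median -0.127) had 1, the desaturase Scd1 (66.7 and 40.8 CPM in WT, 23.0, 18.0 and 14.5 CPM in KO), and gluconeogenesis (6 tested, median -0.178) had 1, Pck1 (-2.61, adjusted p = 0.0494). The Pck1 call was lost in DESeq2 and whichever of the 5 testes was left out.

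Imprinted genes, expressed from only the maternal or the paternal copy and concerned with fetal growth, were lower for 26 of 29 tested in sign. There were 8 falls and no rise (27.6% called, against 5.64% of all genes), with a median of -0.463. Rian, a maternally expressed noncoding RNA, stood at 918 and 1049.8 CPM in WT and 567, 559 and 534 CPM in KO (-0.83 ± 0.14, adjusted p = 0.00245), and its neighbours Mirg (-0.92) and Rtl1 (-1.03) fell with it. Rtl1, Mest (-0.80), Peg10 (-0.81), Nap1l5 (-2.03), Impact (-0.53) and Igf2 (-0.72) are expressed from the paternal copy. The lower genes therefore include both parental kinds. The count was 3 without WT replicate 1, 2 without WT replicate 2 and 5 without KO replicate 1, and DESeq2 and the unfiltered fit called 13 and 15. In the insulin and IGF system 4 of 22 fell and none rose (18.2% called, median -0.287). Igf2, the fetal growth factor, stood at 1408 and 1765 CPM in WT and 1072, 1085 and 723 CPM in KO, and Igf2bp2 (-0.56), Igfbp5 (-0.47) and Htra1 (-0.49) were the others, of which none was called without WT replicate 2.

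Of 41 collagen genes 6 fell and none rose (14.6% called, against 5.64% of all genes), and 34 lay below 0 (median -0.428). Col4a5, of basement membranes, stood at 169 and 234 CPM in WT and 118, 127 and 85.8 CPM in KO (-0.87 ± 0.17, adjusted p = 0.0116). Col6a1 (-0.56), Col5a3 (-0.83), Col5a2 (-0.73), Col5a1 (-0.49) and Col8a1 (-1.54) were also called. Without WT replicate 1, WT replicate 2, KO replicate 1 and KO replicate 3 the counts were 3, 0, 2 and 3, and DESeq2 and the unfiltered fit called 13 and 15. Summed collagen levels were 16067 and 19568 CPM in WT and 15393, 13881 and 11165 CPM in KO, so the spread within groups was large.

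In other signaling pathways the share called was 14.0% for TGF-beta and BMP, 7.32% for Wnt, 11.5% for Notch, 7.14% for hedgehog and 15% for retinoic acid genes, against 5.64% of all genes. Of 43 TGF-beta and BMP genes 6 fell and none rose (median -0.173). Bmp2, a ligand, stood at 12.2 and 15.9 CPM in WT and 4.15, 2.68 and 2.91 CPM in KO (-2.10 ± 0.31, adjusted p = 0.00104). Id2 (-1.02) and Id3 (-0.68), target genes of BMP signals, Bmp6 (-0.77), Tgfbr2 (-0.60) and Eng were lower with it, and the count was 1 without WT replicate 2 and 12 in the unfiltered fit. Of 41 Wnt genes Fzd4 (-0.97), a receptor, Rspo1 (-0.97), an enhancer of Wnt signals, and Wnt5b (-0.72) fell (median -0.236), none of them without WT replicate 2. Of 26 Notch genes the ligand Jag1 (-0.66) and the receptor Notch3 fell, calls that were lost when either WT testis was left out, and Rbpj, the DNA-binding partner of Notch, rose from 97.0 and 93.9 CPM to 156, 172 and 154 CPM (median -0.090), a call lost without WT replicate 2. The pseudogene Rbpj-ps3, named after its value was seen, fell from 35.5 and 28.1 CPM to 3.68, 4.46 and 2.91 CPM. Expected counts divide shared reads between a gene and its copies, so the rise of Rbpj is uncertain.

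Of 14 hedgehog genes Boc, a co-receptor, fell (-0.56; median 0.092), and of 20 retinoic acid genes Stra6, the retinol importer, rose (1.01) and Aldh1a1 and Rbp4 (-1.05) fell (median -0.056). None of these hedgehog or retinoic acid genes was called without either WT testis. Of 19 chemokines and receptors Cxcr4, a homing receptor, fell (-1.23 ± 0.22) and Ccr1 rose (1.79 ± 0.51, adjusted p = 0.0494), with a median of -0.401, and neither was called without WT replicate 2. Of 34 interferon response genes 3 fell and none rose (median -0.371), a share of 8.82% near the 5.64% of all genes. Isg15 stood at 2.98 and 2.90 CPM in WT and 0.237, 0.510 and 0.505 CPM in KO, Ifi44 fell by 2.22 and Xaf1 by 0.79 on the log2 scale. The 6 tested IFI200 genes had no call, with a median of -0.654. None of the 34 listed genes was called without either WT testis. Ifitm3, an interferon-induced gene outside the list that was named after its values were seen, fell by 1.18 on the log2 scale and was called under every alternative.

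The Het and KO testes share the 2 WT testes as controls, so a likeness between the comparisons is in part built in, and their values are given side by side only. The Het testes had 1350 genes called against WT (8.25%). For Nr4a2 the log2 fold change was -3.51 in KO and -3.89 in Het, for Bnip3 -1.55 and -1.78, for Pecam1 -1.13 and -0.93, for Sox9 1.10 and 0.92 and for Aurka 0.96 and 0.97. The endothelial list had 14 lower and 1 higher in KO and 9 lower and 1 higher in Het, with medians of -0.820 and -0.452. Between KO and Het testes directly, edgeR called no gene, with 1881 genes at an unadjusted p under 0.05 and a lowest adjusted p of 0.069, that of Npcd, and DESeq2 called 76. Some genes had distant estimates without passing. Rspo1 was at -0.97 in KO and 0.02 in Het, Lmna, a nuclear lamin, at -0.71 and -0.01, Boc at -0.56 and -0.03, Krt19 at -1.23 and -0.27 and Flt4 at -1.08 and -0.38. The differences between KO and Het for these 5 genes had unadjusted p values from 0.000329 to 0.00325 and adjusted p values from 0.155 to 0.288 in edgeR.

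Position along the chromosomes was examined because the deletion lies on chromosome 3. Within 5 Mb on either side of Bglap 138 genes were tested, 6 were higher and 6 lower (8.70%, against 5.64% called over all genes), with a median of 0.039. Those with the smallest p were S100a8, S100a9, Rps3a1, Rtraf-ps (-0.70), Gpatch4 (1.16) and Lmna (-0.71), of which the first pair are the neutrophil genes above. Of the called genes, Smg5 (-48.2 kb), Lmna (125.5), Mex3a (147.9), Rtraf-ps (192.7), Mef2d (-242.6), Gpatch4 (-341.4), Bcan (-381.6), Msto1 (529.5) and Arhgef11 (-767.0) started nearest to Bglap. S100a8 (2275.3), S100a9 (2311.3) and Rps3a1 (-2241.8) lay far out. Most calls were thus in the inner part of the window, which the share over the whole window does not show. The cause was not tested. Over the numbered chromosomes and X, the share called higher ran from 1.39% to 3.69% and the share called lower from 2.09% to 4.89%. Within 500 kb on either side of a called gene, the most calls in the same direction were 6. Places were picked for reaching that number, so their counts cannot be set against the share over all genes. The stefin A cluster was such a place, another lay on chromosome 1, and another on chromosome 10 around Sppl2b, where 6 of 49 tested genes were higher (Gm49322, Dot1l, Sf3a2, Sppl2b, Pias4 and Gipc3). None of these 6 was called without either WT testis.

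The chromosome 1 segment (GRCm39 135693809 to 136459249, 765 kb), chosen after its values were seen, held 13 tested genes, of which 6 were higher and none was lower. It was chosen for holding the most calls in 1 direction and is bounded by called genes, so its count is a description that cannot be set against the share over all genes. Without either WT testis only Tnnt2 of the 6 was called, and Kif21b was also lost without KO replicate 1, with the replicate block and on the 5 testes alone. Tnni1, Tnnt2 and Cacna1s lie in it. Phlda3, a target of p53, stood at 6.48 and 7.57 CPM in WT and 18.7, 13.3 and 16.3 CPM in KO (1.19 ± 0.24, adjusted p = 0.0103). Kif14, a kinesin of cytokinesis, stood at 20.0 and 19.6 CPM in WT and 34.7, 40.8 and 38.8 CPM in KO (0.95 ± 0.17). Kif21b, a neuronal and immune kinesin, stood at 31.2 and 35.8 CPM in WT and 92.9, 52.1 and 105 CPM in KO (1.32 ± 0.29). Genes between them, such as Lad1 (0.19) and Tmem9 (0.23), were not called, so the rise was not shared by each gene of the segment.

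**Figure D5:**
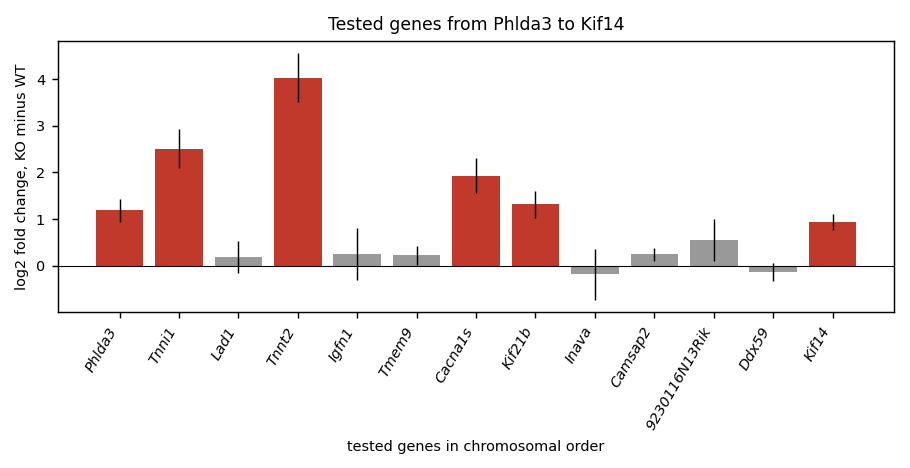
Bars show the log2 fold change (KO minus WT) of the 13 tested genes from Phlda3 to Kif14 on chromosome 1, in chromosomal order, with standard errors as lines and called genes in red. Tnnt2 reaches 4.03, and the grey bars of genes that were not called lie within 0.56 of 0.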

How the data were processed

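RNA-seq libraries of polyadenylated RNA were made without a stated strand protocol. Per the submitters' processing notes the authors trimmed reads with Trim Galore 0.6.6, aligned them to GRCm39 with STAR 2.7.8a and deposited expected counts per gene from RSEM 1.3.3. RSEM divides reads between near copies and overlapping genes. Here the expected counts were rounded to whole numbers. Genes kept by edgeR's filterByExpr were scaled by TMM and tested with edgeR 4.0.16 (robust quasi-likelihood, R 4.3.3) over all 8 testes with group as the only term, and p-values were adjusted over all 16361 genes by Benjamini-Hochberg, with a threshold of 0.05. The script was tested on simulated data. Alternatives were other scalings and filters, DESeq2 1.42.0, the 5 testes alone, a replicate block and leaving out each testis. Promoters of 250 bases were read from GRCm39.

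Members and lists were chosen with earlier results of these data known. Genes were named by rule: the 12 protein-coding genes most changed each way (called, no overlap, at least 1 CPM), 3 each way of other kinds, up to 5 called members of each list by p, the first 2 genes of each cell type list, osteocalcin genes and receptors, and up to 6 called genes within 5 Mb of Bglap. Others are said to be chosen after their values were seen, or are further called members of a list.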

Additional observations from a re-analysis of the deposited data

How the results depend on the processing

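The number of genes called between KO and WT testes, 922, was 1763 without a filter on low counts (792 higher, 971 lower). Library size scaling gave 752 higher and DESeq2 664 higher. Leaving out each testis gave 85 to 1559 calls, 19 to 736 higher and 66 to 823 lower, and where a WT testis was left out the other was assumed to vary like the remaining groups. Between KO and Het testes, where edgeR called 0, DESeq2 called 76, the unfiltered fit 252, the minimum of 10 counts 3, the replicate block 1 and leaving out a testis 0 to 1. No correlation of same-numbered deviations was above 0.1 (-0.094 to 0.087), which cannot show whether replicate numbers pair the samples. The deviations of the 2 WT testes mirror each other, at -0.094 and 0.094 with KO replicate 1. The replicate block gave 836 calls (372 higher, 464 lower). Fold changes near 0 that had not passed the test changed sign, and the cause was not tested. With the replicate block Amh was at -0.084 and Ddx4 at -0.003. Over the fits that left out a testis Amh ran from -0.097 to 0.229, Csf1r from -0.35 to 0.109, Dazl from -0.188 to 0.03, Ddx4 from -0.111 to 0.205 and Sox10 from -0.709 to 0.051.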
